A study of Mus musculus with 6 samples.

Results

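The nuclear genes for the subunits of respiratory complexes II to V and for cytochrome c were compared between whole hearts of α1r/rα2s/s (resistant) and α1s/sα2s/s (sensitive) mice. A gene belonged to this group if the count table listed it as protein coding under the symbol Sdha, Sdhb, Sdhc, Sdhd, Cyc1 or Cycs, or under a symbol that began with Uqcr, with Atp5, or with Cox, a digit from 4 to 8 and a letter. This gave 50 of the 54532 genes listed, with 49 symbols, since Atp5o was listed under 2 identifiers. Complex II had 4 genes, complex III 9, cytochrome c 1, complex IV 18 and complex V 18. The 3 α1r/rα2s/s hearts (368, 369 and 370) and the 3 α1s/sα2s/s hearts (379, 380 and 381) came from 3-month-old male mice on a C57BL/6 background. Both genotypes carry the α2 isoform of Na/K-ATPase in the form that is sensitive to cardiotonic steroids (CTS), which are inhibitors of this pump such as ouabain. They differ in the α1 isoform, which is CTS-resistant in α1r/rα2s/s mice, the control littermates, and was made CTS-sensitive in α1s/sα2s/s mice by substitutions in the mouse gene itself, so the difference is present in every cell type and not only in the heart. Hearts were sequenced whole, so RNA of all their cell types is in each library, and fewer cells of a type cannot be told apart from less RNA per cell.

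Complex II, succinate dehydrogenase, passes electrons from the citric acid cycle to ubiquinone. Complex III passes them on to the small carrier cytochrome c, and complex IV, cytochrome c oxidase, to oxygen. Complexes III and IV pump protons, which return through complex V, the ATP synthase, and the heart makes most of its ATP in this way. Complex II is encoded in the nucleus alone, while the core of complexes III, IV and V also holds subunits encoded in mitochondrial DNA. Several subunits of complex IV have isoforms used in heart and skeletal muscle beside isoforms found in most tissues.

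Each library held between 19309312 and 20470065 counts on genes, of which mitochondrially encoded genes took 23.4% to 26.0%. Counts do not show the substitutions, so the groups rest on the labels alone. Myh6, Myl2 and 8 other cardiomyocyte markers were present in every heart, where these 10 genes took 5.83% to 6.56% of the counts. The skeletal muscle myosin gene Myh4 and the brown fat gene Ucp1 were at 0 in every heart, but other markers of these tissues had counts. The 8 skeletal muscle markers together took 0.00018% to 0.00031% of the counts in each heart, and the 7 adipocyte markers 0.0020% to 0.0031%.

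Promoter sequences are shown for 1 gene of each complex and for Cycs, chosen after the matches were seen as examples among the genes whose window held a motif of NRF1 or an ETS factor, which are known regulators of respiratory genes, and for the Cox7a isoform pair, whose ratio is described further on. RefSeq windows from 250 bases before to 50 bases after the start of a gene (GRCm38.p6) matched 37 of the 49 symbols, in 40 windows. The NRF1 motif was searched as GCATGCGC, the ETS motif as CCGGAAGT, the YY1 motif as AAGATGGC and the half-site of estrogen-related receptors (ERR) as AAGGTCA, on both strands. The 200 bases before the start are printed 5′ to 3′ on the strand of the gene, with motif matches in capitals, and their positions are chr4:140961071-140961270 (Sdhb, plus strand), chr10:80406822-80407021 (Uqcr11, minus), chr6:50566570-50566769 (Cycs, minus), chr5:115348959-115349158 (Cox6a1, minus), chr15:102671048-102671247 (Atp5g2, minus), chr7:30183971-30184170 (Cox7a1, plus) and chr9:79759854-79760053 (Cox7a2, minus).
Sdhb: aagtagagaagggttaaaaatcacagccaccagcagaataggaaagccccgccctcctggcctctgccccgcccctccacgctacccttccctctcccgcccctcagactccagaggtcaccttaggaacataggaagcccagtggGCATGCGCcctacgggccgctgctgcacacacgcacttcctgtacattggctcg
Uqcr11: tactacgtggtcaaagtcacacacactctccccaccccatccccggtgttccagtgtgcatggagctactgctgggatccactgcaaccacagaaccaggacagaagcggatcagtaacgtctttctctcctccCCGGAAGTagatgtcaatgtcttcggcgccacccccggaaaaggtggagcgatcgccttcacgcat
Cycs: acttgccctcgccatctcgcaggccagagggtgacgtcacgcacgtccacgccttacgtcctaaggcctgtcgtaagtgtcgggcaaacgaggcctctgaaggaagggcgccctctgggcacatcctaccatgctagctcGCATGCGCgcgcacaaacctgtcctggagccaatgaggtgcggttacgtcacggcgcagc
Cox6a1: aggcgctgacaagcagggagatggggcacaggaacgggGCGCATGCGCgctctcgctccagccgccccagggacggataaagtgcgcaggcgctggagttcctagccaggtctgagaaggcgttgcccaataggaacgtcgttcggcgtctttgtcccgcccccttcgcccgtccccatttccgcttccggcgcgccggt
Atp5g2: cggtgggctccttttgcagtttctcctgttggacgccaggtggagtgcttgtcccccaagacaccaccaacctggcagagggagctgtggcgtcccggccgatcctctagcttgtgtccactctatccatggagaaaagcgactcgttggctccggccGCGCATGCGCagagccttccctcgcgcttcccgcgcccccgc
Cox7a1: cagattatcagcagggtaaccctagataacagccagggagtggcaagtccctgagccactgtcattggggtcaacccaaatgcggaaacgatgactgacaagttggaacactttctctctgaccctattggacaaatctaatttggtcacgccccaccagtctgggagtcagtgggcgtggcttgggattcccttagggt
Cox7a2: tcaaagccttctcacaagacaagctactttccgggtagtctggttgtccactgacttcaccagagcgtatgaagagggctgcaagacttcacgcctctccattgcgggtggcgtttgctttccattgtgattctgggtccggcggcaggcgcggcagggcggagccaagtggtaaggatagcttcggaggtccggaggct
The capitals are an NRF1 match in Sdhb (complex II) and Cycs, an ETS match in Uqcr11 (complex III), and in Cox6a1 (complex IV) and Atp5g2 (complex V) a pair of NRF1 matches, 1 on each strand, that overlap. An NRF1 match of Uqcr11 that runs past the start of the gene is not in capitals. The windows printed for Cox7a1 and Cox7a2 held none of these 4 motifs.

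The NRF1 motif was in 8 of the 40 windows (20%), against 2.71% of all 32851 windows. It was in Sdhb, Cycs, Uqcrc1, Uqcr11, Cox6a1, Atp5g2, Atp5k and Atp5l. The ETS motif was in 4 windows (10%, against 3.89%), namely those of Uqcr11, Uqcrh, Cox8a and Atp5h. The ERR half-site was in 5 (12.5%, against 4.72%), those of Sdhd, Atp5e, Atp5g3, Atp5k and Atp5l, and the YY1 motif in 3 (7.5%, against 2.75%), those of Atp5f1, Atp5j and Atp5j2. At least 1 of the 4 was found for 17 of the 37 genes (45.9%), against 14.9% of all genes with a window. A match describes the letters and is not a measured binding site.

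Between the genotypes the subunit genes differed little, and nearly all in the same direction. Of the 50 genes, 47 had enough counts to be tested. Their log2 fold change of α1s/sα2s/s over α1r/rα2s/s hearts was above 0 in 43 of the 47, against 48.4% of the 14866 genes tested, and its median was 0.10, against -0.01 for all genes tested. No subunit gene passed an adjusted p of 0.05 in the quasi-likelihood test of edgeR, adjusted by Benjamini and Hochberg's method over every gene tested, a threshold that 1.44% of those genes passed. The smallest adjusted p was 0.222, for Cox5a. In DESeq2 none passed either, where 3.65% of the genes with an adjusted p did, and the smallest was 0.0851, again for Cox5a. At an unadjusted p under 0.05 in edgeR, 3 subunit genes were higher (Cox5a, Cox7a2 and Atp5d), against 7.19% of all genes tested, and 1 was lower (Cox4i2), against 7.27%. In DESeq2, 11 of the 47 were higher at an unadjusted p under 0.05, against 8.53% of the genes with an adjusted p, so this count depended on the tool. In 8 genes every α1s/sα2s/s heart was above every α1r/rα2s/s heart (Uqcr10, Cox4i1, Cox5a, Cox7a2, Cox7a2l, Atp5b, Atp5d and Atp5h), against 10% of all genes tested, and in 1, Atp5mpl, every α1s/sα2s/s heart was below, against 9.98%. Log2 fold changes had a standard error (SE) between 0.06 and 0.41 with a median of 0.07, and 28 of the 47 differences were between 1 and 2 standard errors in size.

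**Figure D1:**
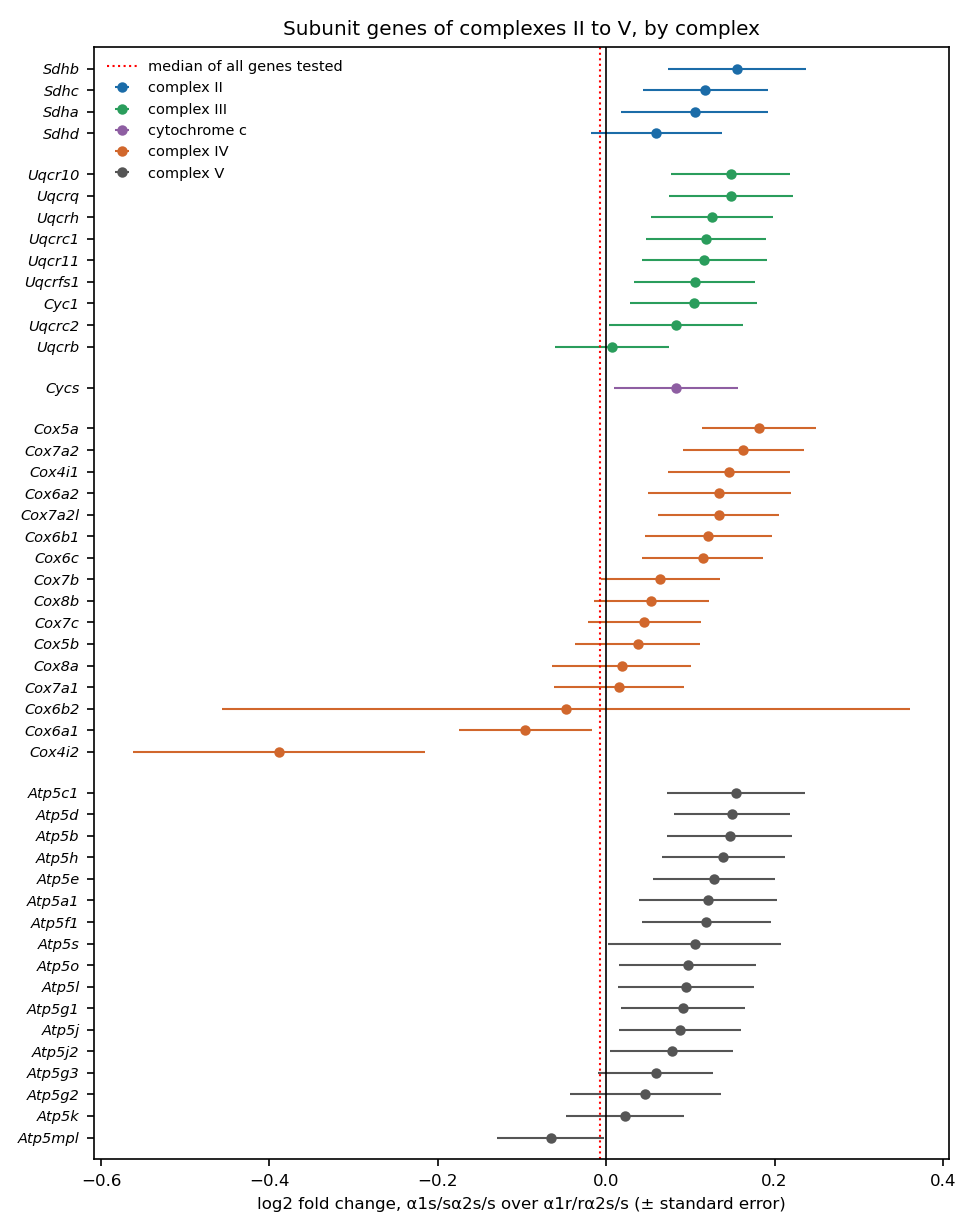
Log2 fold change of α1s/sα2s/s over α1r/rα2s/s hearts (horizontal axis) for the 47 subunit genes tested, grouped by complex; points are edgeR estimates and bars 1 standard error, from 3 hearts a genotype. Of the 47 points 43 lie to the right of 0, and the 4 to the left are Cox4i2, Cox6a1, Cox6b2 and Atp5mpl.

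The spread between hearts of the same genotype was as large as this difference. Heart 381 had the highest CPM (counts per gene scaled to a common library size) of the 6 hearts in 41 of the 47 genes and heart 369 the lowest in 34, and in 34 genes both held. Of all other genes tested, 21.5% were highest in heart 381 and 18.1% lowest in heart 369. Averaged over the 47 genes, the log2 CPM of a heart less the mean of the 6 hearts was 0.0013, -0.10 and -0.02 in α1r/rα2s/s hearts 368, 369 and 370, and 0.03, -0.03 and 0.11 in α1s/sα2s/s hearts 379, 380 and 381. Heart 380 therefore lay below hearts 368 and 370, and the genotypes overlapped. Without hearts 369 and 381, a choice made after seeing the data, the log2 fold change was above 0 in 30 of the 47 genes and its median was 0.01. These were the lowest α1r/rα2s/s heart and the highest α1s/sα2s/s heart, so leaving both out was bound to lower the average difference. Without heart 381 alone the median was 0.06 with 38 genes above 0, and without heart 369 alone it was 0.06 with 42.

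**Figure D2:**
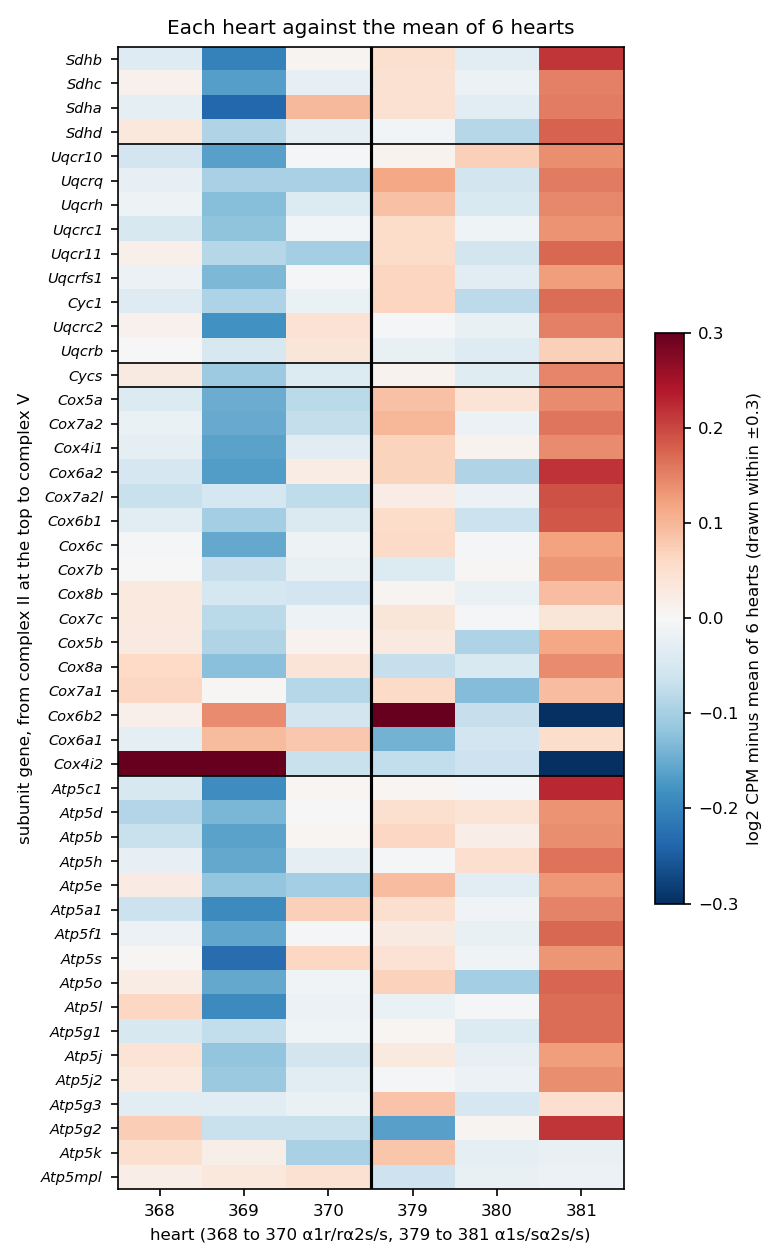
Log2 CPM of each subunit gene (rows, from complex II at the top to complex V) in each heart (columns) less the mean of the 6 hearts; red is above the mean and blue below, and the thick line separates the genotypes. Heart 381 is red and heart 369 blue in most rows.

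The scaling of the libraries moved the values as well. The subunit genes took 3.04%, 2.89% and 2.96% of the counts in α1r/rα2s/s hearts and 3.04%, 2.91% and 3.13% in α1s/sα2s/s hearts, shares that overlapped. TMM, which scales libraries so that most genes keep their level, gave factors of 1.04, 1.06 and 0.989 in α1r/rα2s/s hearts and 0.985, 0.986 and 0.945 in α1s/sα2s/s hearts. With library size alone, also tried after seeing the data, 30 of the 47 genes were above 0 and the median was 0.02, while the median of all genes tested moved to -0.09. A change of scaling shifts all genes by about the same amount, so the median of the subunit genes less that of all genes tested, 0.11 under both, could not move with it.

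**Figure D3:**
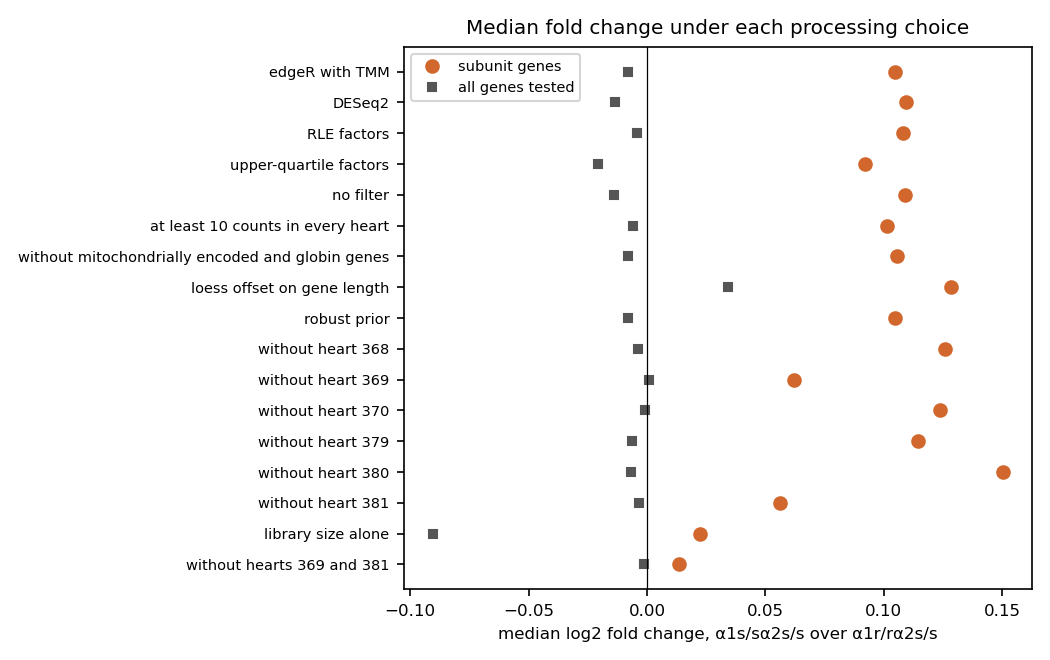
Median log2 fold change of α1s/sα2s/s over α1r/rα2s/s hearts for the 47 subunit genes (circles) and for all genes tested (squares) under each processing choice (rows). The circles lie above 0 in every row and fall to 0.02 with library size alone and 0.01 without hearts 369 and 381.

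Other genes of high level were also mostly higher in α1s/sα2s/s hearts. Of the 47 subunit genes 40 had a mean log2 CPM over 7, and 39 of these 40 (97.5%) were higher, at a median log2 fold change of 0.12. Among the 951 other genes above this level 686 (72.1%) were higher, with a median of 0.08. Over a mean log2 CPM of 9, all 21 subunit genes were higher with a median of 0.10, beside 82.5% of 166 other genes with a median of 0.10. At this highest level the subunit genes therefore had about the same median as the rest, and from 7 to 9 it was 0.12 for 19 subunit genes and 0.08 for 785 others. The other genes over 9 included all 10 cardiomyocyte markers and at least 1 gene each of complex I and of mitochondrial content, lists described further on. Heart 381 was the highest in 46% of the 951 other genes of high level, and in 38 of the 40 subunit genes. Heart 369 was the lowest in 47.3% of these 951 genes, and in 32 of the 40 subunit genes.

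**Figure D4:**
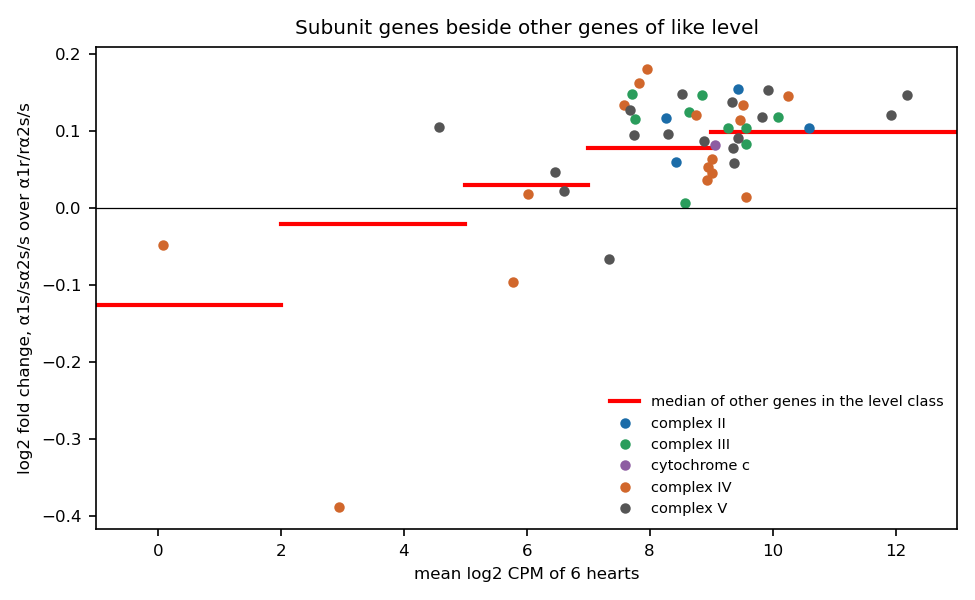
Log2 fold change of α1s/sα2s/s over α1r/rα2s/s hearts (vertical axis) against mean log2 CPM of the 6 hearts (horizontal axis) for the 47 subunit genes, coloured by complex; red lines are the medians of the other genes tested in 5 classes of level. The red lines rise from -0.13 in the lowest class to 0.10 in the highest, and most subunit genes lie near the lines of the upper 2 classes.

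With 1 heart left out, the medians by complex ranged from 0.05 to 0.16 for complex II, 0.07 to 0.16 for complex III, 0.05 to 0.09 for complex IV and 0.05 to 0.14 for complex V. The lowest of these came without heart 369 for complexes II and IV and without heart 381 for complexes III and V.

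In complex II all 4 genes were higher, at a median log2 fold change of 0.11, and none had an unadjusted p under 0.05. Sdha, the flavoprotein that oxidises succinate, had the highest level per length of the complex, 375 RPKM (CPM divided by gene length in kilobases, mean of 6 hearts). It had 1515, 1312 and 1650 CPM in α1r/rα2s/s hearts and 1592, 1506 and 1717 CPM in α1s/sα2s/s hearts. Heart 369 was low and the other hearts of the genotypes overlapped, for a log2 fold change of 0.10 (SE 0.09, edgeR adjusted p = 0.629), which was 0.02 without heart 369. Sdhb, the iron-sulfur subunit, had the smallest p of the complex. Its values were 671, 599 and 694 CPM in α1r/rα2s/s hearts and 713, 675 and 799 CPM in α1s/sα2s/s hearts, where heart 380 fell between the α1r/rα2s/s hearts. The log2 fold change of Sdhb was 0.16 (SE 0.08, edgeR adjusted p = 0.406). The membrane anchors Sdhc and Sdhd had 0.12 and 0.06.

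In complex III all 9 genes were higher, at a median log2 fold change of 0.12 and a range from 0.0072 (Uqcrb) to 0.15 (Uqcr10). Uqcrfs1, the Rieske iron-sulfur protein, had the highest level per length, 555 RPKM. It had 746, 688 and 753 CPM in α1r/rα2s/s hearts and 789, 739 and 824 CPM in α1s/sα2s/s hearts, a log2 fold change of 0.10 (SE 0.07, edgeR adjusted p = 0.541), and heart 380 was again within the α1r/rα2s/s range. Uqcr10, a small subunit beside the cytochrome c1 heme, was the only gene of complex III in which the genotypes did not overlap. It had 201, 187 and 208 CPM in α1r/rα2s/s hearts and 211, 220 and 230 CPM in α1s/sα2s/s hearts. The log2 fold change of Uqcr10 was 0.15 (SE 0.07, edgeR adjusted p = 0.353). Cyc1, which is cytochrome c1 itself, and the core proteins Uqcrc1 and Uqcrc2 had log2 fold changes of 0.10, 0.12 and 0.08.

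Cycs, the electron carrier between complexes III and IV, had 546, 497 and 520 CPM in α1r/rα2s/s hearts and 539, 522 and 593 CPM in α1s/sα2s/s hearts. Only heart 381 stood above the α1r/rα2s/s hearts. The log2 fold change was 0.08 (SE 0.07, edgeR adjusted p = 0.655), and it was -0.0014 with library size alone and -0.0061 without hearts 369 and 381.

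Complex IV had the widest spread of values. Of its 18 genes 16 were tested, 13 of them higher and 3 lower, with a median log2 fold change of 0.06. Cox5a, a subunit on the matrix side of the enzyme, had the smallest p of all the subunit genes. It had 241, 223 and 234 CPM in α1r/rα2s/s hearts and 263, 255 and 274 CPM in α1s/sα2s/s hearts, with no overlap, a log2 fold change of 0.18 (SE 0.07, edgeR adjusted p = 0.222). The log2 fold change of Cox5a stayed between 0.16 and 0.21 when any 1 heart was left out. Its exons share 269 bases with the noncoding gene Gm26631 on the opposite strand, which had 18 to 55 counts in each heart, beside 4660 to 5303 for Cox5a.

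The isoforms of complex IV subunits were compared in pairs. In the Cox6a, Cox7a and Cox8 pairs the heart or muscle isoform was set against its partner. Cox4i1 and Cox6b1 were set against the less abundant Cox4i2 and Cox6b2. Cox7a1, the muscle isoform, had the highest level per length of all subunit genes, 1422 RPKM. It had 793, 761 and 716 CPM in α1r/rα2s/s hearts and 790, 694 and 811 CPM in α1s/sα2s/s hearts, and the genotypes overlapped almost fully, with a log2 fold change of 0.02 (SE 0.08, edgeR adjusted p = 0.952). Its partner Cox7a2, found in most tissues, had 223, 204 and 215 CPM in α1r/rα2s/s hearts and 242, 223 and 253 CPM in α1s/sα2s/s hearts. Every α1s/sα2s/s heart was above every α1r/rα2s/s heart in Cox7a2, though heart 380 only just, and the log2 fold change was 0.16 (SE 0.07, edgeR adjusted p = 0.316). The log2 ratio of Cox7a1 to Cox7a2 was 1.83, 1.90 and 1.73 in α1r/rα2s/s hearts and 1.70, 1.63 and 1.68 in α1s/sα2s/s hearts. The ratio was thus lower in every α1s/sα2s/s heart, by a mean difference of -0.15 on the log2 scale. An exact two-sided permutation test gave p = 0.1, the smallest that 3 hearts against 3 allow, and an adjusted p of 0.4 over the 8 pairs compared.

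Cox4i1, the subunit 4 isoform of most tissues, had 1195, 1088 and 1191 CPM in α1r/rα2s/s hearts and 1274, 1227 and 1342 CPM in α1s/sα2s/s hearts, with no overlap and a log2 fold change of 0.15 (SE 0.07, edgeR adjusted p = 0.374). Cox4i2, the isoform known from lung and from cells of small vessels, was far lower, with Cox4i1 at 81.5 times its level per length. It had 9.45, 9.27 and 7.13 CPM in α1r/rα2s/s hearts and 7.10, 7.15 and 5.50 CPM in α1s/sα2s/s hearts. Hearts 368 and 369 were high, heart 381 was low, and heart 370 lay between hearts 379 and 380, for a log2 fold change of -0.39 (SE 0.17, edgeR adjusted p = 0.320), the largest in size of all the subunit genes. Between the genotypes all 8 markers of smooth muscle and pericytes were also lower, with a median log2 fold change of -0.29. They took 0.138% to 0.151% of the counts in α1r/rα2s/s hearts and 0.117% to 0.138% in α1s/sα2s/s hearts. Relative to the mean of 6 hearts they averaged 0.22, 0.04 and 0.14 log2 CPM in hearts 368, 369 and 370. In hearts 379, 380 and 381 they averaged -0.14, -0.16 and -0.11. Cox4i2 had 0.33, 0.31 and -0.07 in hearts 368, 369 and 370. In hearts 379, 380 and 381 it had -0.07, -0.06 and -0.44, so the signs differed in heart 370 alone. All 8 macrophage markers, described further on, were lower as well (median -0.45). None of the 8 smooth muscle and pericyte markers was at 0, and the part of either cell type in the value of Cox4i2 was not tested. The log2 ratio of Cox4i1 to Cox4i2 was 6.91, 6.80 and 7.29 in α1r/rα2s/s hearts and 7.39, 7.32 and 7.81 in α1s/sα2s/s hearts, a difference of 0.51 with no overlap (exact two-sided permutation test p = 0.1, adjusted p = 0.4).

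Cox6a2, the heart and muscle isoform of subunit 6a, had 705, 649 and 741 CPM in α1r/rα2s/s hearts and 765, 686 and 849 CPM in α1s/sα2s/s hearts, a log2 fold change of 0.13 (SE 0.08, edgeR adjusted p = 0.498). Cox6a1, its partner in other tissues, was lower, at 53.8, 58.6 and 58.0 CPM in α1r/rα2s/s hearts and 49.7, 52.8 and 56.9 CPM in α1s/sα2s/s hearts. The values of each gene overlapped between the genotypes, and the log2 fold change of Cox6a1 was -0.10 (SE 0.08, edgeR adjusted p = 0.624). Cox6a1 was 1 of 3 genes of complex IV below 0, all of them isoforms with the lower level of their pair. Cox7a2 and Cox8a, which also had the lower level of their pairs, were above 0 (0.16 and 0.02). The log2 ratio of Cox6a2 to Cox6a1 was 3.70, 3.46 and 3.66 in α1r/rα2s/s hearts and 3.93, 3.69 and 3.89 in α1s/sα2s/s hearts, a difference of 0.23 with overlap at heart 380 (exact two-sided permutation test p = 0.2, adjusted p = 0.533).

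Cox8b, the heart and muscle isoform of subunit 8, had 502, 475 and 473 CPM in α1r/rα2s/s hearts and 495, 485 and 524 CPM in α1s/sα2s/s hearts. Cox8a, its partner, had 67.1, 59.0 and 66.2 CPM in α1r/rα2s/s hearts and 61.4, 62.4 and 71.1 CPM in α1s/sα2s/s hearts. Both overlapped between the genotypes, with log2 fold changes of 0.05 (SE 0.07, edgeR adjusted p = 0.772) and 0.02 (SE 0.08, edgeR adjusted p = 0.945). Per length, Cox8b had 11.5 times the level of Cox8a, Cox6a2 13.8 times that of Cox6a1, and Cox7a1 5.92 times that of Cox7a2, so in each of these 3 pairs the muscle isoform led in these hearts.

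Cox6b1 had 424, 403 and 420 CPM in α1r/rα2s/s hearts and 450, 414 and 492 CPM in α1s/sα2s/s hearts, a log2 fold change of 0.12 (SE 0.08, edgeR adjusted p = 0.489). Cox6b2, an isoform known from testis, was near the limit of the test with 20, 22 and 18 counts in α1r/rα2s/s hearts and 24, 17 and 14 counts in α1s/sα2s/s hearts. These are 0.955, 1.05 and 0.904 CPM against 1.19, 0.894 and 0.726 CPM, and its log2 fold change of -0.05 had a standard error of 0.41 (adjusted p = 0.971), so a difference was not detectable at this depth. Cox7b2 and Cox8c were not tested, with 5 to 11 counts in each heart and 0 counts in every heart. The ratios of Cox6b1 to Cox6b2 and of Cox8b to Cox8a overlapped between the genotypes (exact two-sided permutation tests, p = 0.5 and 0.7, both with an adjusted p of 0.8). The remaining 5 genes of complex IV were Cox5b, Cox6c, Cox7b, Cox7c and Cox7a2l, which is known for joining complexes III and IV. They had log2 fold changes from 0.04 (Cox5b) to 0.13 (Cox7a2l), and only Cox7a2l did not overlap between the genotypes.

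**Figure D5:**
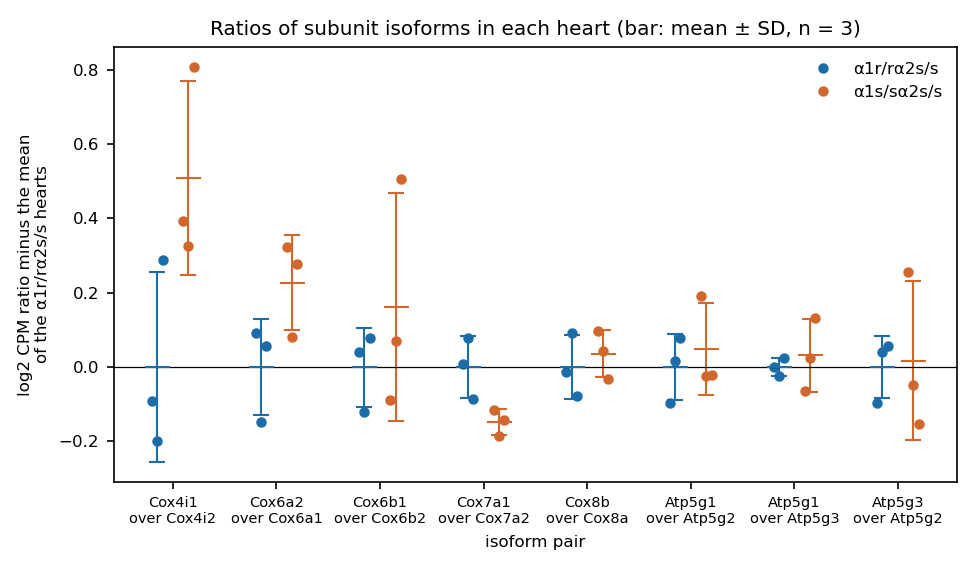
Log2 CPM ratio of 8 isoform pairs in each heart, less the mean of the α1r/rα2s/s hearts; points are hearts, and bars the mean ± SD of 3 hearts. The genotypes do not overlap for Cox4i1 over Cox4i2 (difference 0.51) and Cox7a1 over Cox7a2 (difference -0.15), and overlap for the other 6 pairs.

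In complex V 17 of the 18 genes were tested, 16 of them higher and 1 lower, with a median log2 fold change of 0.10. Atp5a1, the α subunit of the catalytic head, had the highest level per length of the complex, 1246 RPKM, followed by Atp5b, the catalytic β subunit, with 1094 RPKM. Atp5a1 had 3725, 3412 and 4090 CPM in α1r/rα2s/s hearts and 4026, 3864 and 4319 CPM in α1s/sα2s/s hearts, with overlap and a log2 fold change of 0.12 (SE 0.08, edgeR adjusted p = 0.530). Atp5d, the δ subunit, had the smallest p of the complex. It had 348, 336 and 370 CPM in α1r/rα2s/s hearts and 382, 380 and 406 CPM in α1s/sα2s/s hearts, with no overlap and a log2 fold change of 0.15 (SE 0.07, edgeR adjusted p = 0.340). Atp5b, Atp5c1 and Atp5e had log2 fold changes of 0.15, 0.15 and 0.13.

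The ring of c subunits, through which protons pass, is made from 3 genes that encode the same mature protein behind different import sequences. Atp5g3 had the highest level per length of them (305 RPKM), then Atp5g1 (141 RPKM) and Atp5g2 (52.3 RPKM). Atp5g1 had 671, 658 and 687 CPM in α1r/rα2s/s hearts and 696, 674 and 779 CPM in α1s/sα2s/s hearts. Atp5g3 had 650, 648 and 655 CPM in α1r/rα2s/s hearts and 705, 641 and 688 CPM in α1s/sα2s/s hearts. Atp5g2 had 92.0, 83.4 and 83.4 CPM in α1r/rα2s/s hearts and 78.0, 87.8 and 101 CPM in α1s/sα2s/s hearts, so the α1s/sα2s/s hearts lay on both sides of the α1r/rα2s/s hearts. The log2 fold changes of Atp5g1, Atp5g3 and Atp5g2 were 0.09, 0.06 and 0.05, with edgeR adjusted p of 0.615, 0.745 and 0.862. Their 3 ratios differed between the genotypes by 0.02 to 0.05 on the log2 scale, with exact two-sided permutation p of 0.7, 0.7 and 0.9 (adjusted p of 0.8, 0.8 and 0.9).

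The peripheral stalk genes Atp5f1, Atp5h, Atp5j and Atp5o had log2 fold changes of 0.12, 0.14, 0.09 and 0.10, and only Atp5h did not overlap. Among the small subunits in the membrane, Atp5j2, Atp5k and Atp5l had 0.08, 0.02 and 0.10. Atp5mpl, which encodes a small proteolipid of the enzyme, was the only gene of complex V below 0. It had 164, 166 and 167 CPM in α1r/rα2s/s hearts and 155, 160 and 160 CPM in α1s/sα2s/s hearts, a small difference with no overlap and with little spread, a log2 fold change of -0.07 (SE 0.06, edgeR adjusted p = 0.681). Atp5s, known as coupling factor B, was the least abundant of the tested genes of complex V per length (11.7 RPKM) and had 0.11. The second Atp5o identifier had 0 counts in every heart, so no read was assigned to it. Of its 530 exon bases, 243 are shared with the first identifier and 287 with the gene Donson, on the same strand. Reads in these shared stretches cannot be told apart by position.

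Exons of 12 subunit genes overlapped those of another gene on the opposite strand, the longest stretch being 504 bases of Uqcrc2 shared with Pdzd9. Atp5j shared 397 bases with Gabpa, which encodes a subunit of the ETS factor GABP and had 1354 to 1566 counts in each heart. Whether strand was used in counting is not given in the sources used here, so reads in these stretches cannot be told apart.

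Fold changes were set beside the promoter motifs as a description. The 8 genes with an NRF1 match had a median log2 fold change of 0.09, with 7 of them above 0, and the 28 tested genes with a window but no match had 0.10, with 27 above 0. The medians with and without a match were 0.12 (4 genes) and 0.10 for the ETS motif, 0.06 (5 genes) and 0.10 for the ERR half-site, and 0.09 (3 genes) and 0.10 for the YY1 motif. For genes with any of the 4 motifs the median was 0.09 in 17 genes, and without any it was 0.10 in 19 genes, and none of these differences was tested. The exception among the genes with an NRF1 match was Cox6a1, whose window is printed with the other promoters.

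Complex I, which passes electrons from NADH to ubiquinone, had values like those of complexes II to V. Of its 36 nuclear subunit genes tested, 35 were higher, against 48.4% of all genes tested, at a median log2 fold change of 0.11. In edgeR 5 were higher at an unadjusted p under 0.05, against 7.19% of all genes tested, and none passed an adjusted p of 0.05. The 3 with the smallest p were Ndufs8, Ndufs7 and Ndufv1, with log2 fold changes of 0.17, 0.16 and 0.18. The 8 genes of mitochondrial content, such as Cs (citrate synthase), the Vdac channels and the import receptor Tomm20, were all higher, with a median of 0.08. None of them had an unadjusted p under 0.05, and neither list had a gene past an adjusted p of 0.05 in DESeq2.

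The partners of these subunits that are encoded in mitochondrial DNA were 6 genes, of which 5 were higher at a median log2 fold change of 0.12, and of 0.03 without heart 381. mt-Co1, the catalytic subunit of complex IV, had 94522 ± 6208 CPM in α1r/rα2s/s hearts and 106829 ± 5632 CPM in α1s/sα2s/s hearts (SD, n = 3), with no overlap and a log2 fold change of 0.18 (SE 0.08, edgeR adjusted p = 0.333). mt-Cytb, of complex III, had 0.13. mt-Co2, mt-Co3, mt-Atp6 and mt-Atp8 were much less abundant than mt-Co1, and the first 3 had means of 184 to 407 CPM in the 2 genotypes with wide spreads, and their log2 fold changes were 0.66, -0.54 and 0.11 (edgeR adjusted p = 0.230, 0.349 and 0.878). Nuclear copies of mitochondrial DNA could share their reads, which was not tested. The values of these 4 genes, with the median of the 6, are therefore uncertain. mt-Atp8 had a log2 fold change of 0.04 (edgeR adjusted p = 0.943).

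The assembly factors of complexes II to IV had medians closer to 0. For complex II 3 of 4 were higher (median log2 fold change 0.02), for complex III 2 of 6 (-0.01) and for complex IV 11 of 19 (0.03). Taco1, which activates translation of mt-Co1, had 48.2 ± 1.87 CPM in α1r/rα2s/s hearts and 41.9 ± 1.47 CPM in α1s/sα2s/s hearts (SD, n = 3), with no overlap and a log2 fold change of -0.20 (SE 0.08, edgeR adjusted p = 0.232). The 4 tested genes for assembly or inhibition of complex V were all higher (median 0.13). Atpif1, which encodes the inhibitor of the ATP synthase, had 63.6 ± 2.17 CPM in α1r/rα2s/s hearts and 74.7 ± 7.66 CPM in α1s/sα2s/s hearts (SD, n = 3), with no overlap, a log2 fold change of 0.23 (SE 0.08, edgeR adjusted p = 0.197). The difference between the subunits and the assembly factors was not tested.

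Transcriptional regulators of respiratory genes went in both directions, with 6 of 13 higher and a median log2 fold change of -0.03. Ppargc1b, a coactivator, had 27.8 ± 3.27 CPM in α1r/rα2s/s hearts and 21.8 ± 1.20 CPM in α1s/sα2s/s hearts (SD, n = 3), with no overlap and a log2 fold change of -0.35 (SE 0.11, edgeR adjusted p = 0.129). Yy1, whose motif was searched in the promoters, had 59.3 ± 2.02 and 69.6 ± 3.01 CPM (SD, n = 3), again with no overlap, and 0.23 (SE 0.07, edgeR adjusted p = 0.145). Esrrg and Ppara, both nuclear receptors, had -0.20 and -0.37, with overlap and adjusted p of 0.309 and 0.315. Nrf1, Gabpa and Ppargc1a had 0.06, -0.05 and -0.06.

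Markers of macrophages and fibroblasts went the other way in the same hearts. Relative to the mean of 6 hearts, the 8 macrophage markers averaged 0.50 log2 CPM in heart 369 and -0.48 in heart 381, and the 8 fibroblast markers 0.28 and -0.25, where the subunit genes averaged -0.10 and 0.11. Between the genotypes all 8 macrophage markers were lower, with a median log2 fold change of -0.45, and took 0.0340% to 0.0571% of the counts in α1r/rα2s/s hearts and 0.0282% to 0.0364% in α1s/sα2s/s hearts. Of the fibroblast markers 6 of 8 were lower (median -0.20), with 0.117% to 0.148% of the counts against 0.1004% to 0.121%. Of the endothelial markers 5 of 8 were lower (median -0.04), with 0.128% to 0.164% against 0.124% to 0.152%, and Fabp4 alone of all these markers passed the edgeR test, higher by 0.39 (adjusted p = 0.0358), while Fabp4, Col1a1, Mrc1, C1qa and Acta2 passed in DESeq2. Of the cardiomyocyte markers 8 of 10 were higher, with a median of 0.08 beside the 0.10 of the subunit genes, and they averaged -0.13 in heart 369 and 0.11 in heart 381. The subunit genes less the cardiomyocyte markers were 0.04, 0.03 and -0.10 in α1r/rα2s/s hearts and 0.03, -0.0071 and 0.0073 in α1s/sα2s/s hearts, which overlapped. None of these macrophage, fibroblast, endothelial and cardiomyocyte markers was at 0 in any heart. Erythroid markers were highest in heart 380 and lowest in heart 381, and all 6 had a log2 fold change above 0 (median 0.60, smallest adjusted p = 0.564). Adipocyte markers were near the limit of the test, with 0.0020% to 0.0031% of the counts in each heart. Of these 7 markers 4 were tested and all were higher, at a median of 0.69, with 1 at an unadjusted p under 0.05 (Plin1, 1.32, edgeR adjusted p = 0.266), and they averaged -0.04 in heart 369 and 0.09 in heart 381. Of 8 skeletal muscle markers 3 were tested, of which 2 were higher. The part of cell composition in the values of the subunit genes was not tested.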

How the data were processed

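RNA of 6 whole hearts was sequenced on an Illumina NovaSeq by a company, which also mapped and counted the reads. The deposited table gives these raw counts, with no scaling between hearts. Per the labels, fastp, STAR and featureCounts were used with mm10, and their versions, the strand setting and the treatment of reads that map to several places are not given in the sources used here. Gene length is the value in the deposited table, in bases. The authors' own DESeq2 comparison, which holds mean normalized counts, log2 fold changes, standard errors, Wald statistics and p-values, was not used.

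Groups were taken from the labels. Counts were fitted over the whole table in R 4.3.3 with edgeR 4.0.16 (TMM, filterByExpr with a minimum count of 10 and a minimum total of 15, quasi-likelihood test with genotype alone, Benjamini-Hochberg adjustment over the 14866 genes kept, threshold 0.05). The standard error was the log2 fold change divided by the square root of F. The biological coefficient of variation was 11.1%, and counting error of the tested subunit genes was at most 4.58% of a value, except in Cox4i2 and Cox6b2. CPM and RPKM used TMM library sizes. Isoform ratios were log2 ratios of CPM with a pseudocount of 0.5, compared by exact two-sided permutation of the 6 hearts. No 2 hearts of a genotype agreed within sampling noise, as a library deposited in duplicate would (6.85 to 13.1 chi-square units per gene). Gene positions were checked against GENCODE M21, in which all 50 genes were found, 48 with identical coordinates. Figures were drawn with matplotlib 3.10.9 in Python 3.11.15.

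The subunit genes and the other gene lists were chosen with earlier results of these data known. Values per heart are given for members with an unadjusted p under 0.05, the smallest p and the highest level per length of each complex, the largest rise and fall, and the tested isoform pairs. Atp5mpl, the comparison by level and the choice of promoters to print were added after the values were seen. Of the other lists, the rule named at most 3 genes with an unadjusted p under 0.05, and the others named, such as Ppara, Nrf1 and mt-Cytb, were added after their values were seen. Alternatives were DESeq2 1.42.0, upper-quartile and RLE factors, every gene with a count, only genes with 10 counts or more in all hearts, leaving out mitochondrially encoded and globin genes, a loess offset on gene length (span 0.3), the robust prior and leaving out each heart, and, after seeing the data, library size alone and leaving out hearts 369 and 381 together. The level of the substituted gene is not reported here.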

Additional observations from a re-analysis of the deposited data

How the results depend on the processing

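No subunit gene passed an adjusted p of 0.05 under any alternative run, and the median log2 fold change of the 47 genes stayed above 0, between 0.06 and 0.15 when 1 heart was left out. It moved to 0.022 with library size alone and to 0.014 without hearts 369 and 381. The second choice left out the lowest α1r/rα2s/s and the highest α1s/sα2s/s heart, which lowers the average difference by itself. No other cause of these moves was tested. With library size alone the medians of cytochrome c and complex IV turned to -0.0014 and -0.025, and 13 of the 47 genes turned below 0, among the genes with values per heart Cycs (-0.0014), Cox7a1 (-0.070), Cox8b (-0.030), Cox8a (-0.065), Atp5g3 (-0.024) and Atp5g2 (-0.039). Without hearts 369 and 381 the medians of complex II and cytochrome c turned to -0.0062 and -0.0061, and 15 genes changed sign, among them Cycs (-0.0061), Sdha (-0.031), Cox7a1 (-0.025), Cox8a (-0.11), Atp5g2 (-0.081) and Cox6b2 (0.17). The length offset left 38 genes above 0 and turned 5 below, Cox7a1 (-0.038), Cox8b (-0.024), Cox8a (-0.033), Atp5k and Uqcrb. With 1 heart left out Cox7a1 ranged from -0.028 to 0.085, Cox8a from -0.050 to 0.061, Atp5g2 from -0.056 to 0.14 and Cox6b2 from -0.26 to 0.11, while 39 of the 47 genes kept their sign in all 6 fits.

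Of the 8 isoform ratios, 5 changed sign when 1 heart was left out, on the log2 scale: Cox6b1 over Cox6b2 ranged from -0.0096 to 0.29, Cox8b over Cox8a from -0.0033 to 0.081, Atp5g1 over Atp5g2 from -0.023 to 0.088, Atp5g1 over Atp5g3 from -0.020 to 0.079 and Atp5g3 over Atp5g2 from -0.10 to 0.10. Subunit genes higher at an unadjusted p under 0.05 numbered 3 in edgeR, against 7.19% of all genes tested. They numbered 10 with no filter (4.95% of all genes then tested), 6 with the length offset (10.6%) and 1 with upper-quartile factors (6.25%). There were 0 with library size alone (3.03%) and 0 without hearts 369 and 381 (5.26%). With 1 heart left out there were 0 to 10, against 5.61% to 7.76% of all genes then tested, and the 10 came without heart 380 (6.65%). Of the other genes of the pathway none passed an adjusted p of 0.05 in edgeR. With no filter 4 did (mt-Co1, mt-Co2, mt-Co3 and Ppara), and with heart 369 left out, or hearts 369 and 381, 1 did (mt-Co3, log2 fold change -0.86 and -0.91). Leaving out 1 heart gave 0 to 1 such genes. Over all genes tested, 214 passed, and 618 with no filter, 403 in DESeq2 and 80 to 158 with 1 heart left out. No paired analysis was possible because the labels give no number that hearts of both genotypes share.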
